A study of Mus musculus with 8 samples.

Results

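The transcripts of branched chain amino acid uptake and breakdown were followed in left ventricular (LV) myocardium of mice. The 30 genes were taken by name, as the rows of the array table that carry the symbol of a listed uptake carrier, breakdown enzyme or regulator, with the brightest probe set where a gene had several; all 30 were measured, of 19933 genes in all. Mut, the methylmalonyl-CoA mutase, is listed on the platform as Mmut. Each of the 8 arrays held the LV RNA of 1 C57/Bl6 mouse. There were 2 PlGF mice, in which placental growth factor was produced by cardiomyocytes, 3 mice labelled PlGF/RGS4, in which a regulator of G protein signaling was to be produced together with PlGF, and 3 control mice. The transgenes were of the Tet-OFF kind, in which a tTA driver under the αMHC promoter of cardiomyocytes is held silent by doxycycline; withdrawal of the drug let them be expressed for 6 weeks, and all mice were 11 weeks old. The controls were littermates that inherited 1 transgene only, the driver or the responder, so they were not free of transgenic DNA, and which of the pair each control carried is not given in the sources used here. Sex is not given either.

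Leucine, isoleucine and valine are essential amino acids that muscle and heart break down themselves, whereas most other amino acids are handled mainly by the liver. They cross the cell membrane through exchangers that share a heavy chain, are deaminated in the mitochondrion by a transaminase, and are then committed to breakdown by the branched chain ketoacid dehydrogenase, whose activity is set by a kinase that switches it off and a phosphatase that switches it on. Beyond that step leucine yields acetyl-CoA and a ketone body, valine yields propionyl-CoA, and isoleucine yields both acetyl-CoA and propionyl-CoA, which reaches the citrate cycle as succinyl-CoA. Leucine is also a signal for mTORC1, the kinase complex that couples nutrient supply to protein synthesis. The study examined the transaminase Bcat2 as a target of the microRNA miR-182 in hypertrophy.

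Some properties of the arrays bear on every value that follows. Pgf, the gene of PlGF, read 4136 and 917 intensity units in PlGF hearts, 300.0, 229 and 211 in PlGF/RGS4-labelled hearts, and 211, 349 and 387 in control hearts, so that it goes against the PlGF/RGS4 label; Rgs4 read 187 to 234 in the arrays with that label and 209.5 to 281.5 in control. PlGF replicate 1 stood apart, with a mean correlation of 0.974 across genes with the arrays of the other groups, where each other array had 0.991 to 0.993. Xist, the transcript of the silenced X chromosome, was low in 1 array of each group (26.9 in PlGF replicate 1, 36.1 in PlGF/RGS4 replicate 2 and 50.8 in control replicate 2) and read at least 2581 on each other array. Of the 30 genes, 7 had the same value on 2 or more arrays to the last decimal. How these identical values arose is not given in the sources used here.

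Transcripts of breakdown read lower in PlGF hearts than in control hearts, and the size of the difference depended on the heart. Changes are on the scale log2(intensity + 1), on which a fold change understates that of dim genes. The median change of the 30 genes was −0.37 in PlGF versus control, where that of all genes tested was −0.03. Of the 30 genes, 26 were below 0, where 11690 of all 19933 genes were. No single member passed limma's test over all genes: 0 were called at an adjusted p under 0.05 (Benjamini-Hochberg), in a comparison that called 0.748% of all genes lower and 1.79% higher. At an unadjusted p under 0.05, limma found 18 members lower and 1 higher, against a background of 11.7% of all genes lower and 10.9% higher. A t-test with a pooled spread, on the same log2 values, found 0 members by that measure, where it had 5.42% of all genes lower and 4.04% higher. The methods give a t-test for comparisons of 2 groups in general and name no test for the arrays. The intensities of the PlGF and control arrays did not overlap for 18 members that were lower and 3 that were higher in PlGF, where 19.5% of all genes were lower and 14.3% higher without overlap. In whole tissue, fewer cardiomyocytes and less RNA per cardiomyocyte cannot be told apart.

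PlGF replicate 1 carried most of the difference. It read below every control array for 25 of the 30 genes, against 43.5% of all genes, and below PlGF replicate 2 for 26, against 52.8% of all genes. PlGF replicate 2 was also below every control array for 19 members, where 29% of all genes were. The median difference of the members from the control mean was −0.65 in PlGF replicate 1 and −0.13 in PlGF replicate 2, with −0.05, −0.01 and −0.03 in the arrays labelled PlGF/RGS4 and 0.01, 0.02 and −0.03 in the control arrays. Without PlGF replicate 2, limma called 26 of the 30 members at an adjusted p under 0.05, 25 of them lower, in a fit that called 15.6% of all genes lower. Without PlGF replicate 1, 11 members were lower at an unadjusted p under 0.05, where 7.16% of all genes were, and 0 were higher; these were Bckdha, Bckdhb, Mccc1, Auh, Echs1, Hibch, Hibadh, Hsd17b10, Mcee, Oxct1 and Klf15. In both of these fits the lone PlGF array is taken to vary like the arrays of the other groups. The 2 PlGF hearts also differed in Pgf (4136 in PlGF replicate 1 and 917 in PlGF replicate 2) and in Xist (26.9 and 2724). The part of either in the difference was not tested, and over 2 hearts they cannot be told apart.

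**Figure D1:**
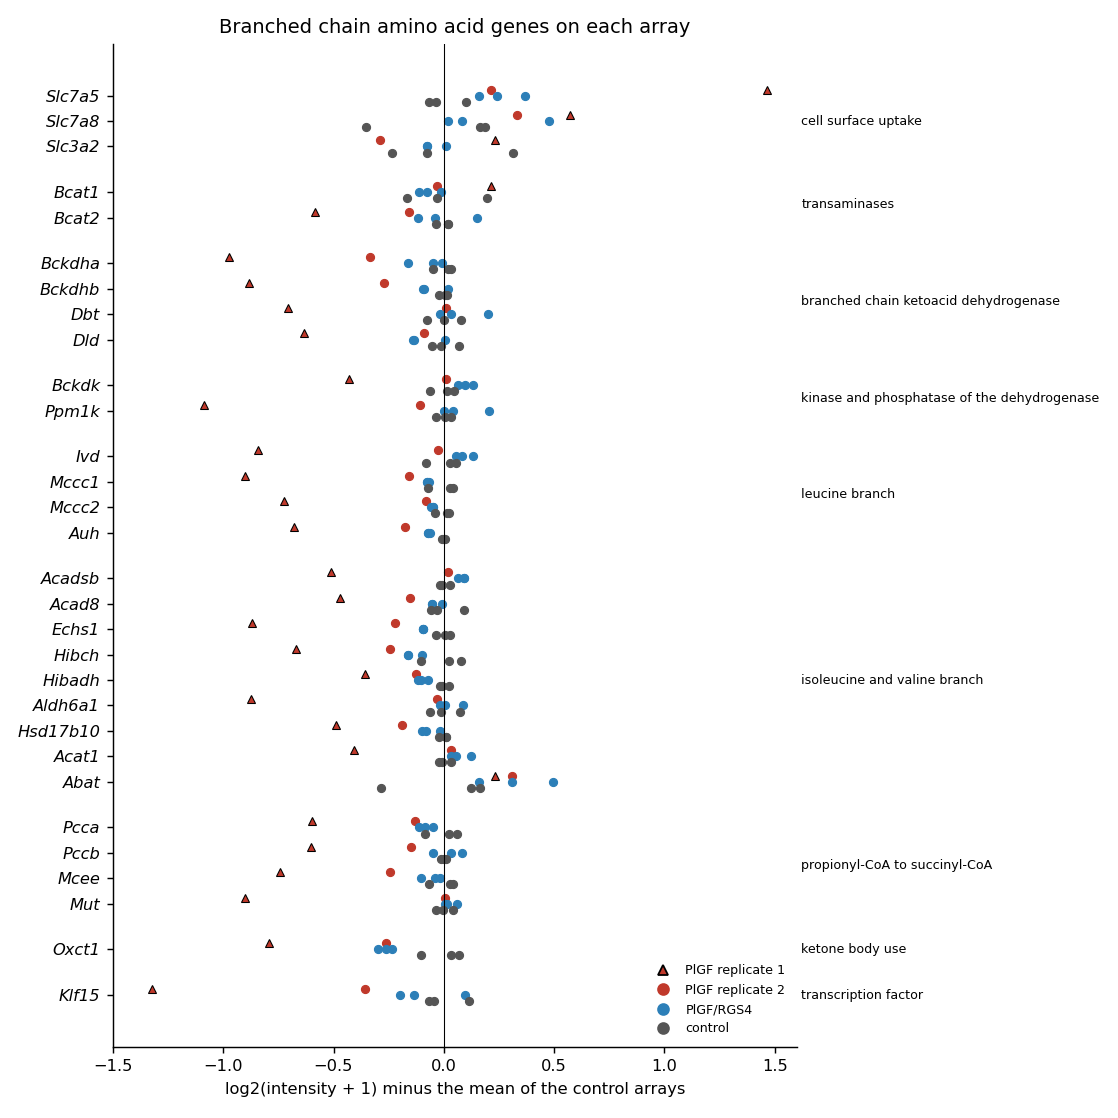
Value of each of the 30 genes on each of the 8 arrays, as log2(intensity + 1) minus the mean of the 3 control arrays (x axis), with the genes down the page in the order of the pathway. Triangles mark PlGF replicate 1, which lies below every control array for 25 genes, and the other PlGF array lies below every control array for 19.

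The members of uptake did not share this direction. Slc7a5, the light chain LAT1 that exchanges branched chain and aromatic amino acids, read 761.5 and 319.7 in PlGF hearts, 325, 356 and 307 in PlGF/RGS4-labelled hearts, and 268, 263 and 295.5 in control hearts. It was thus higher in each PlGF and PlGF/RGS4-labelled heart than in any control heart, and PlGF replicate 1 alone reached 276% of the control mean. The change in PlGF was 0.84 ± 0.31 (SE) on the log2 scale (limma adjusted p = 0.165). Slc7a8, which encodes the related light chain LAT2, read 199 and 168.5 in PlGF hearts, 142, 187 and 135 in PlGF/RGS4-labelled hearts, and 104.5, 153 and 150.2 in control hearts. Both PlGF hearts were above all controls, with a change of 0.45 ± 0.20 (limma adjusted p = 0.236). Slc3a2, the heavy chain CD98 that carries either light chain to the membrane, read 2569.7 and 1788 in PlGF hearts, 2071, 2198 and 2071 in PlGF/RGS4-labelled hearts, and 1855, 2071 and 2715 in control hearts. The PlGF hearts lay on opposite sides of the control mean of 2214, and the change of −0.03 ± 0.19 was within the spread of the controls.

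The transaminases remove the amino group, Bcat1 in the cytosol and Bcat2 in the mitochondrion. Bcat2 read 1112 and 1495 in PlGF hearts, 1534, 1851 and 1618 in PlGF/RGS4-labelled hearts, and 1688.5, 1686 and 1623 in control hearts. Both PlGF hearts were below every other heart, at 66.7% and 89.7% of the control mean, with a change of −0.37 ± 0.13 (limma unadjusted p = 0.0228, adjusted p = 0.152). The study selected Bcat2 from its mRNA arrays as lower in PlGF and not in PlGF/RGS4 hearts, so these values give no independent support. Its other evidence for Bcat2 came from qPCR, anti-miR-182 treatment, a reporter assay and knockdown in cardiomyocytes, which these arrays do not address. Bcat1 ran between 80.0 and 100.5 over the PlGF hearts and the arrays labelled PlGF/RGS4, and between 77.0 and 99.4 in control, with no order of the groups. The mature strand of miR-182, the microRNA studied as a regulator of Bcat2, is shown because its seed (bases 2 to 8, in capitals) is the part that pairs with targets; it lies at chr6:30165962-30165986 on the minus strand (RefSeq, GRCm38.p6).
mmu-miR-182-5p: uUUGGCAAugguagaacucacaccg
The probe set of its gene, Mir182, read 16.1 and 16.1 in PlGF hearts, 17.9, 16.1 and 16.1 in PlGF/RGS4-labelled hearts, and 16.2, 12.9 and 14.8 in control hearts, close to the lowest intensities of the arrays (7.1 to 7.7), and such probes do not measure the mature strand.

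The dehydrogenase is the committing step, and each of its 4 genes read lower in PlGF, with a median change of −0.47. Bckdha, which encodes the alpha chain of the decarboxylase part, had 733 and 1141 intensity units in PlGF hearts, 1284, 1390.5 and 1429.9 in PlGF/RGS4-labelled hearts, and 1390.5, 1457 and 1471 in control hearts. Its change of −0.65 ± 0.16 had an unadjusted p of 0.00455, the lowest among the members in PlGF versus control (limma adjusted p = 0.0782). Bckdhb, the beta chain, followed with 1124 and 1719 in PlGF hearts, 1942, 2104 and 1947 in PlGF/RGS4-labelled hearts, and 2097, 2084 and 2043 in control hearts, a change of −0.58 ± 0.15 (limma adjusted p = 0.0911). For both chains each PlGF heart was below all 6 other hearts. Dbt, the transacylase core that holds the lipoyl group, differed in PlGF replicate 1 only: it read 1195 and 1959.5 in PlGF hearts, 1928, 2239 and 1995 in PlGF/RGS4-labelled hearts, and 2056.5, 1947.5 and 1847 in control hearts (−0.35 ± 0.19, limma adjusted p = 0.306). Dld, the dihydrolipoyl dehydrogenase that this complex shares with those of pyruvate and 2-oxoglutarate, had 2289.6 and 3342 in PlGF hearts, 3224, 3569 and 3235.5 in PlGF/RGS4-labelled hearts, and 3721, 3518 and 3426 in control hearts (−0.36 ± 0.14, limma adjusted p = 0.197). Here PlGF replicate 2 lay among the arrays labelled PlGF/RGS4, and below the controls.

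A phosphatase and a kinase oppose each other on the dehydrogenase. Ppm1k, the phosphatase that activates the complex, read 637 and 1258 in PlGF hearts, 1353, 1559.7 and 1395 in PlGF/RGS4-labelled hearts, and 1360.1, 1383 and 1320.2 in control hearts. PlGF replicate 1 stood at 47.0% and PlGF replicate 2 at 92.9% of the control mean, and the change was −0.60 ± 0.24 (limma unadjusted p = 0.0414, adjusted p = 0.202). Bckdk, the inactivating kinase, read 1256 and 1705.5 in PlGF hearts, 1812, 1769.6 and 1857 in PlGF/RGS4-labelled hearts, and 1711, 1747 and 1623 in control hearts. Its PlGF replicate 2 lay within the controls, so the change of −0.21 ± 0.12 did not separate the groups (limma adjusted p = 0.324). Whether the kinase and the phosphatase differed in their change was not tested.

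Klf15, a Krüppel-like factor that activates genes of amino acid breakdown in muscle and heart, had the largest change of the 30 in the lower direction. It read 253 and 496 in PlGF hearts, 678, 579 and 553 in PlGF/RGS4-labelled hearts, and 605.5, 616 and 688 in control hearts. Each PlGF heart was below the 6 others, at 39.8% and 78.0% of the control mean, and the change was −0.84 ± 0.25 (limma unadjusted p = 0.0109, adjusted p = 0.112). Against the arrays labelled PlGF/RGS4 the change was −0.76 ± 0.25 (limma adjusted p = 0.177). Without PlGF replicate 1 the change against control was −0.36, and without PlGF replicate 2 it was −1.32.

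**Figure D2:**
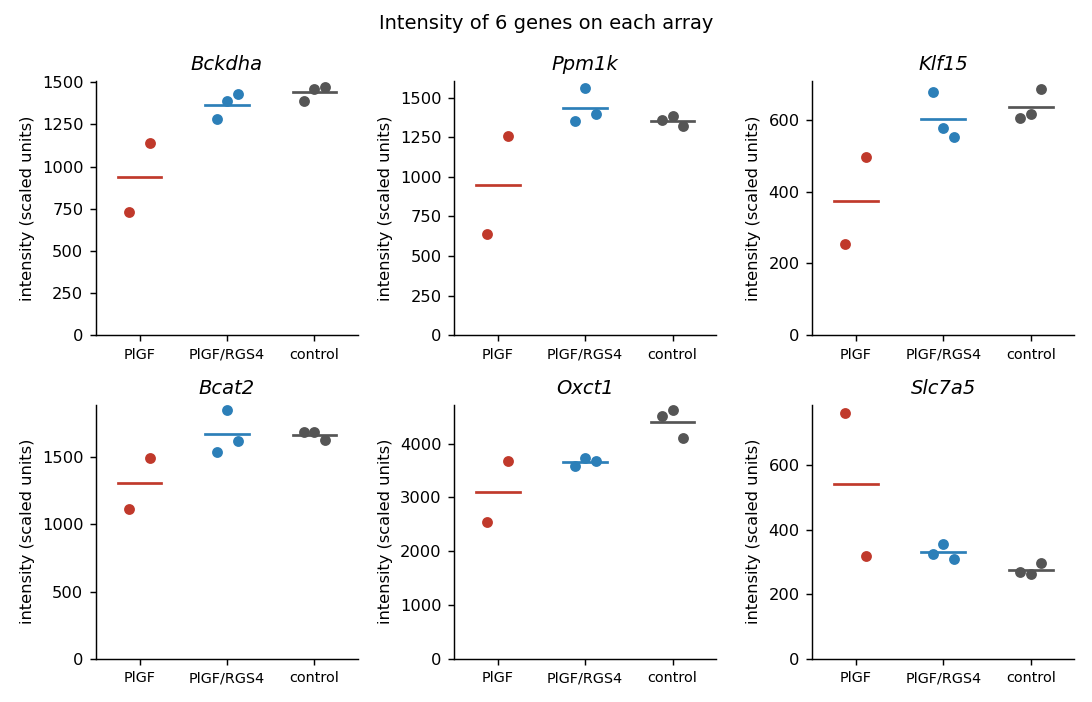
Scaled array intensity (y axis, from 0) of 6 genes in the 2 PlGF, 3 PlGF/RGS4-labelled and 3 control arrays (x axis), with points for arrays and lines for group means. Bckdha, Klf15 and Bcat2 are below every other array in both PlGF hearts. Oxct1 is below control in the PlGF and the PlGF/RGS4-labelled arrays, and Slc7a5 is above control in both of these groups.

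The promoters of the 4 members with the lowest change in PlGF are shown because these members were lower together. Each is the 250 bases before the annotated start, written 5′ to 3′ on the strand of the gene (RefSeq, GRCm38.p6), with a GC box (CCCCGCCC on either strand), to which Krüppel-like and Sp factors bind, and an E-box (CACGTG, the same on both strands), to which basic helix-loop-helix factors bind, in capitals. They lie at chr6:90462326-90462575 on the plus strand (Klf15), chr7:25658762-25659011 on the minus strand (Bckdha), chr6:57535488-57535737 on the minus strand (Ppm1k) and chr9:83924887-83925136 on the plus strand (Bckdhb, the first of 2 starts in the table).
Klf15: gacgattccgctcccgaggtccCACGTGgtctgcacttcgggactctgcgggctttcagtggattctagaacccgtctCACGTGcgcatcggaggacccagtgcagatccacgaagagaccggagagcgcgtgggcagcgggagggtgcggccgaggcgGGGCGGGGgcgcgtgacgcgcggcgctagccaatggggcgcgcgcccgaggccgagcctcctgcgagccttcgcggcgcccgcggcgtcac
Bckdha: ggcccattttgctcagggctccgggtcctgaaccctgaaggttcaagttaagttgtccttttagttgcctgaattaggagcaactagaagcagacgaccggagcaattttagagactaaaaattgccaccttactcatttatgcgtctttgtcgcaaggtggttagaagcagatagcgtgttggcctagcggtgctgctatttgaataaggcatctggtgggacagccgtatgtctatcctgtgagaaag
Ppm1k: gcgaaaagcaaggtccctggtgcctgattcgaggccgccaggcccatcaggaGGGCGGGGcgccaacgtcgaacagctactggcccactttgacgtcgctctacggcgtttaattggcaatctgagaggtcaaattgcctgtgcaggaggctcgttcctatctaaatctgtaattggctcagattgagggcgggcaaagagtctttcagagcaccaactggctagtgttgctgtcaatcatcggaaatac
Bckdhb: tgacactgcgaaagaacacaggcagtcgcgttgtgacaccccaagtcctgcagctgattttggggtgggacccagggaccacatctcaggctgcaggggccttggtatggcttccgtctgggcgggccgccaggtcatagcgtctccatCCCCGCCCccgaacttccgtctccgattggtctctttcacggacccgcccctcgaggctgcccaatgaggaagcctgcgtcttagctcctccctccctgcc
Klf15 holds 1 GC box and 2 E-boxes, Ppm1k and Bckdhb 1 GC box each, and Bckdha none of either in this window. The table has promoters for 25 of the 30 members, of which 11 (44%) hold a GC box, where 26% of the 15610 genes with a promoter and a probe set do. An E-box was found for Klf15 and Mccc2 (8% of the members), against 8.11% of all genes. The shorter CACCC box (CCACCC on either strand), which also binds Krüppel-like factors and can share letters with a GC box, was found for 8 members (32%), against 34.3% of all genes. The element TNAAGGTCA of the estrogen-related receptors, on either strand, was found for 0 members, against 1.08% of all genes. A match describes the letters only.

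Along the leucine branch all 4 genes were lower in PlGF, by a median of −0.43. Ivd, the isovaleryl-CoA dehydrogenase, read 2183 and 3851 in PlGF hearts, 4071, 4148 and 4288 in PlGF/RGS4-labelled hearts, and 3994, 4066 and 3705 in control hearts, and its PlGF replicate 2 was inside the control range (−0.43 ± 0.20, limma adjusted p = 0.253). Mccc1 and Mccc2 encode the biotin-carrying and the other subunit of methylcrotonyl-CoA carboxylase. Mccc1 had 790.1 and 1327 in PlGF hearts, 1401, 1404 and 1412 in PlGF/RGS4-labelled hearts, and 1509, 1520.3 and 1408 in control hearts. Mccc2 had 568 and 888 in PlGF hearts, 904, 909 and 909 in PlGF/RGS4-labelled hearts, and 950.5, 956 and 914 in control hearts. For both subunits the PlGF hearts were below every other heart, with changes of −0.53 ± 0.18 and −0.40 ± 0.16 and limma unadjusted p of 0.0225 and 0.0373. Mccc1 was listed by the study from its arrays in the same way as Bcat2. Auh, which hydrates methylglutaconyl-CoA, read 1027 and 1458 in PlGF hearts, 1568.5, 1576 and 1569 in PlGF/RGS4-labelled hearts, and 1655, 1639 and 1648 in control hearts. The groups did not overlap at all for Auh, whose change in PlGF was −0.43 ± 0.13 (limma unadjusted p = 0.0109, adjusted p = 0.111).

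Of the 9 members on the isoleucine and valine branch, 8 had a change below 0 in PlGF, where 11690 of all 19933 genes did. At an unadjusted p under 0.05, 5 of the 9 were lower, against 11.7% of all genes. Echs1, the short-chain enoyl-CoA hydratase that serves both amino acids as well as fatty acids, read 2358 and 3695 in PlGF hearts, 4039, 4042 and 4039 in PlGF/RGS4-labelled hearts, and 4326, 4403 and 4211 in control hearts. The 3 groups did not overlap, and the change in PlGF was −0.55 ± 0.16 (limma adjusted p = 0.109). Hibch and Hibadh act in turn on the valine carbon, a hydrolase that frees hydroxyisobutyrate and the dehydrogenase that oxidises it. Hibch read 594 and 799 in PlGF hearts, 844, 883.5 and 844 in PlGF/RGS4-labelled hearts, and 999, 962 and 879 in control hearts, so that both PlGF hearts were below all others (−0.46 ± 0.12, limma adjusted p = 0.0868). Hibadh read 4743.5 and 5564 in PlGF hearts, 5653, 5772 and 5606 in PlGF/RGS4-labelled hearts, and 6168, 6044 and 6002 in control hearts. Its difference was small, −0.24 ± 0.07, with 3 groups that did not overlap (limma adjusted p = 0.108).

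Acad8 and Acadsb are the acyl-CoA dehydrogenases of the same branch. The first, which oxidises the valine intermediate isobutyryl-CoA, read 534 and 664.5 in PlGF hearts, 713, 714 and 735 in PlGF/RGS4-labelled hearts, and 709.6, 724 and 788 in control hearts (−0.31 ± 0.09, limma adjusted p = 0.116). The other, which acts on the isoleucine intermediate, read 1145 and 1651 in PlGF hearts, 1704, 1736 and 1737 in PlGF/RGS4-labelled hearts, and 1609.5, 1664 and 1619 in control hearts (−0.25 ± 0.13, limma adjusted p = 0.311). PlGF replicate 2 was below the controls for Acad8 and within them for Acadsb. Hsd17b10, an X-linked dehydrogenase of isoleucine breakdown, read 2839 and 3497 in PlGF hearts, 3728, 3767.5 and 3934 in PlGF/RGS4-labelled hearts, and 3929, 4018 and 4018 in control hearts. Both PlGF hearts were below the 6 others, with a change of −0.34 ± 0.09 (limma unadjusted p = 0.00481, adjusted p = 0.0796).

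The last members of the branch were less clear. Aldh6a1, which turns methylmalonate semialdehyde into propionyl-CoA, read 1476 in PlGF replicate 1 and 2654 in PlGF replicate 2, with 2596.5 to 2876 over the other 6 hearts. Acat1, the mitochondrial thiolase that splits methylacetoacetyl-CoA, likewise read 3887 in PlGF replicate 1, while PlGF replicate 2 and PlGF/RGS4 replicate 1 had the same value, 5280.4. Neither separated PlGF from control. Abat, the GABA transaminase that also acts on a semialdehyde of valine breakdown, was the 1 member of this branch with a change above 0: it read 430.3 and 454 in PlGF hearts, 454, 517 and 409 in PlGF/RGS4-labelled hearts, and 411, 399 and 300.3 in control hearts. Its change in PlGF was 0.27 ± 0.15 (limma adjusted p = 0.322).

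From propionyl-CoA to succinyl-CoA, 3 of the 4 members were lower in PlGF at an unadjusted p under 0.05, against 11.7% of all genes. Pcca and Pccb encode the alpha and beta chains of propionyl-CoA carboxylase. Pcca read 708 and 978 in PlGF hearts, 993, 1035 and 1012 in PlGF/RGS4-labelled hearts, and 1119, 1091 and 1010.4 in control hearts. Pccb read 538 and 738 in PlGF hearts, 835, 789 and 864 in PlGF/RGS4-labelled hearts, and 824, 817 and 809.9 in control hearts. Both chains were below every other heart in both PlGF hearts, with near-equal changes of −0.37 ± 0.12 (limma adjusted p = 0.145 for Pcca and 0.131 for Pccb). Mcee, the methylmalonyl-CoA epimerase, read 3184.5 and 4503 in PlGF hearts, 4970.0, 5264 and 5183 in PlGF/RGS4-labelled hearts, and 5086, 5494 and 5432 in control hearts (−0.49 ± 0.13, limma adjusted p = 0.0878). Mut, the cobalamin-dependent mutase of the last step, read 752 in PlGF replicate 1 and 1409 in PlGF replicate 2, with 1368 to 1464 over the 6 other hearts, so that it was low in 1 PlGF heart only.

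Oxct1, the transferase that lets the heart use ketone bodies, had the lowest change of the 30 members in PlGF/RGS4 versus control. Its intensities were 2542 and 3669 in PlGF hearts, 3579, 3742 and 3671 in PlGF/RGS4-labelled hearts, and 4508, 4620.1 and 4108 in control hearts. All 5 PlGF and PlGF/RGS4-labelled hearts were below all 3 controls. The change was −0.53 ± 0.14 in PlGF versus control (limma adjusted p = 0.0879) and −0.27 ± 0.13 in PlGF/RGS4 versus control (limma unadjusted p = 0.0687, adjusted p = 0.995); between PlGF and PlGF/RGS4 it was −0.26 ± 0.14 (limma adjusted p = 0.332), and PlGF replicate 2 lay among the arrays labelled PlGF/RGS4.

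The arrays labelled PlGF/RGS4 were near control for most of the genes. The median change of the 30 members was −0.05 in PlGF/RGS4 versus control, with 0.00 over all genes, and 0 members passed limma's test, in a comparison that called 0% of all genes lower and 0.0151% higher. At an unadjusted p under 0.05, 0 members were lower, against 2.28% of all genes, and 1 was higher, against 2.74%. That member was Abat, at 0.32 ± 0.13 (limma unadjusted p = 0.0463). The spread in this fit also draws on the 2 PlGF arrays, which differ from each other. A limma fit to only the 2 groups compared had 4 members lower and 2 higher by that measure. It had 4.12% of all genes lower, and 8.9% in either direction. The values of the arrays labelled PlGF/RGS4 were clear of the control values for 10 members. Of these, 5 were lower (Mccc2, Auh, Echs1, Hibadh and Oxct1) and 5 higher (Bckdk, Ivd, Acadsb, Acat1 and Slc7a5), where 5.85% of all genes were lower and 6.96% higher without overlap.

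The design also sets PlGF hearts against PlGF/RGS4-labelled hearts, in which the added regulator was meant to hold back hypertrophy. In the labelled hearts neither Pgf (211 to 300.0) nor Rgs4 (187 to 234) read above the control range (211 to 387 and 209.5 to 281.5). What an added RGS4 did was therefore not tested by this contrast. The median of the members was −0.34 in PlGF versus PlGF/RGS4, with −0.03 over all genes. At an adjusted p under 0.05 limma called 0 members, where it called 0.0853% of all genes lower and 1.1% higher; at an unadjusted p under 0.05, 16 members were lower and 0 higher, where 10.6% of all genes were lower and 8.95% higher. Arrays did not overlap for 20 members, all of them lower in PlGF, against 19.9% of all genes lower and 12.6% higher. Pccb (−0.39 ± 0.12) and Bckdha (−0.58 ± 0.16) were among the 16, with limma adjusted p of 0.159 and 0.143. Bckdk, Ivd and Acadsb were lower in this contrast and did not pass that threshold against control. Their changes were −0.31 ± 0.12, −0.52 ± 0.20 and −0.33 ± 0.13 (limma unadjusted p = 0.0319, 0.0344 and 0.0415). For each of them the PlGF/RGS4-labelled arrays also read above every control array. This contrast shares its PlGF arrays with PlGF versus control, and without PlGF replicate 2 it had 26 members past an adjusted p of 0.05, 25 of them lower, where 15% of all genes were lower by that measure.

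**Figure D3:**
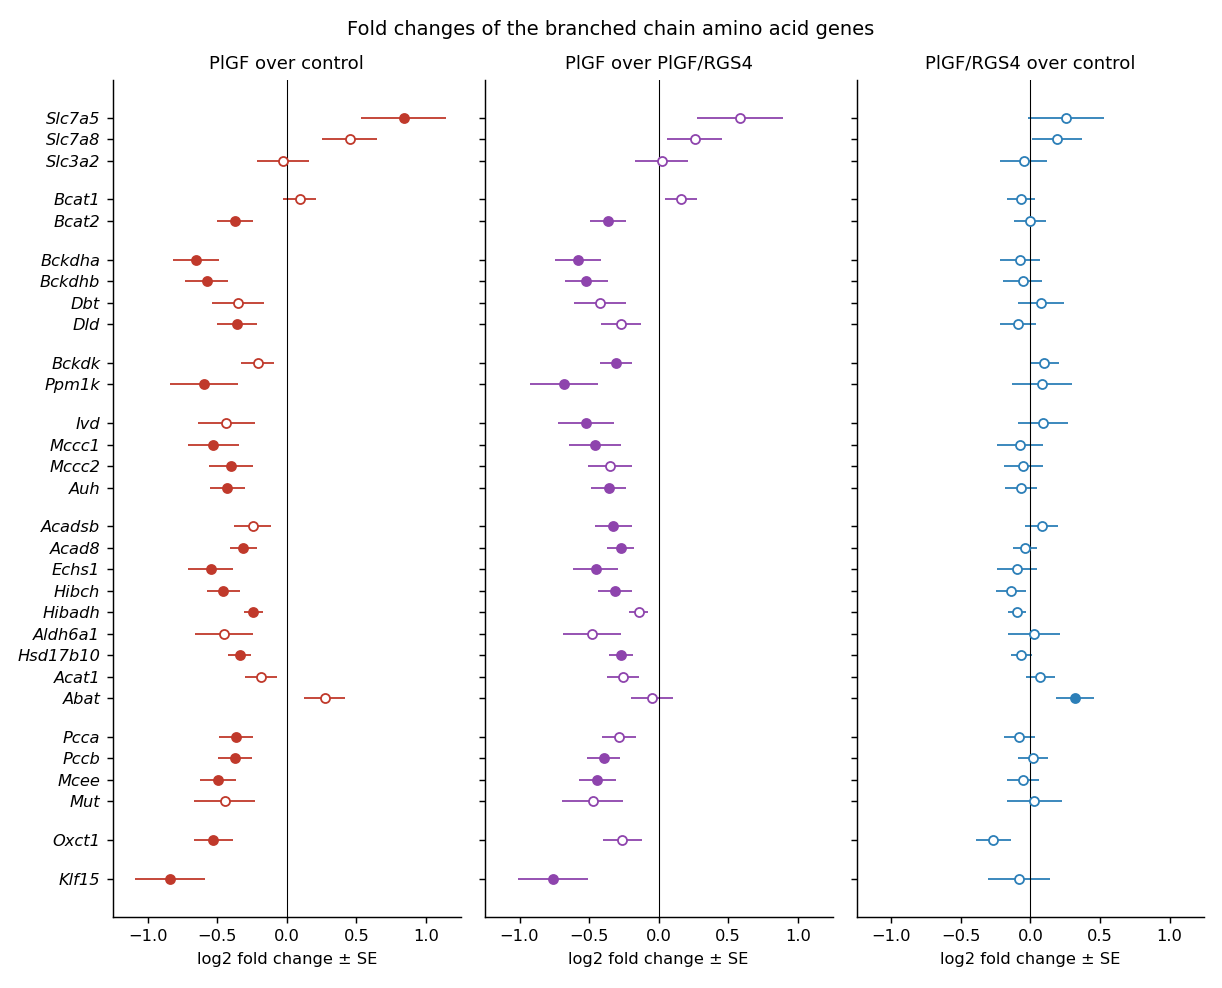
Log2 fold change of the 30 genes (x axis, bars are limma's SE) in PlGF over control, PlGF over PlGF/RGS4 and PlGF/RGS4 over control, with filled points at an unadjusted p under 0.05. The filled points are 18 lower and 1 higher against control, 16 lower against PlGF/RGS4, and Abat alone in PlGF/RGS4 over control.

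Other genes around the pathway were listed to see how far the pattern reached. Of 25 other degradation enzymes 21 were measured, with a median of −0.26 in PlGF versus control. At the adjusted threshold 0 passed, where 0.748% of all genes were called lower and 1.79% higher. At an unadjusted p under 0.05, 10 were lower and 1 higher, against 11.7% and 10.9% of all genes. Those with the smallest p were Acsf3 (−0.39), an acyl-CoA synthetase for malonate and methylmalonate, Hadhb (−0.44) and Hadha (−0.36), the subunits of the trifunctional protein of fatty acid oxidation, and Mmachc (−0.21), which handles cobalamin. Hadha read 5129 and 7097 in PlGF hearts, 7403 on each of the 3 arrays labelled PlGF/RGS4, and 7692, 7729 and 7800.4 in control hearts. Aacs (0.23), the cytosolic acetoacetyl-CoA synthetase, was the higher one. The 12 other amino acid carriers, all measured, had a median of −0.07. At an unadjusted p under 0.05, 1 of the 12 was lower (Slc43a1, −0.42, a branched chain amino acid carrier). By that measure 1 was higher (Slc7a7, 0.54, a light chain for cationic amino acids), where 11.7% of all genes were lower and 10.9% higher.

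Among 21 genes of leucine sensing and mTORC1, all measured, the median change was −0.05, where that of all genes was −0.03. Of these 21, 1 gene passed the test over all genes, which called 0.748% of them lower and 1.79% higher. The gene that passed was Ddit4, also called REDD1, an inhibitor of mTORC1. It read 221 and 273 in PlGF hearts, 707.5, 442 and 529.5 in PlGF/RGS4-labelled hearts, and 813.5, 586 and 959.6 in control hearts. Both PlGF hearts were below every other heart, and Ddit4 fell by 1.64 on the log2 scale (limma adjusted p = 0.0263). Sesn1, which encodes a stress-induced sestrin of the family that senses leucine, read 1237 and 2033 in PlGF hearts, 2353, 2210.4 and 2172 in PlGF/RGS4-labelled hearts, and 2685, 3033 and 2981.5 in control hearts (−0.87, limma adjusted p = 0.0579). Its 3 groups did not overlap. Lars2 (−0.24), the mitochondrial leucyl-tRNA synthetase, and Nprl2 (−0.27), of the GATOR complex that restrains mTORC1, were also lower at an unadjusted p under 0.05. By that measure 5 of the 21 were lower and 0 higher, where 11.7% of all genes were lower and 10.9% higher.

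Markers of cell types were also read, and their lists did not share a direction. The 12 cardiomyocyte markers, all measured, had a median difference from the control mean of −0.17 in PlGF replicate 1 and −0.01 in PlGF replicate 2. Their summed intensity was 131261 and 151610 in PlGF hearts, 150623 to 151934 in PlGF/RGS4-labelled hearts, and 152192 to 154477 in control hearts. The median hides a split within this list. At limma's unadjusted p under 0.05, 3 of the 12 were lower in PlGF versus control and 0 higher, against 11.7% and 10.9% of all genes. These were Ryr2 (−0.73), Pln (−0.27) and Atp2a2 (−0.25). Ryr2 lay at −1.16 from the control mean in PlGF replicate 1 and −0.30 in PlGF replicate 2. Of 16 leukocyte markers 15 were measured, and 8 were called higher in PlGF at an adjusted p under 0.05, where 1.79% of all genes were. Their median was 1.70 in PlGF replicate 1 and 0.71 in PlGF replicate 2, and their sum was 16617 and 8488.5 in PlGF hearts, 3996 to 5230 in PlGF/RGS4-labelled hearts, and 4443 to 4677 in control hearts. The array low in the 30 genes was thus the array high in leukocyte transcripts, over only 2 PlGF hearts, and the part of the cell makeup in the result was not tested. Median changes in PlGF versus control were 0.14 for 10 endothelial, 0.34 for 8 fibroblast, −0.12 for 6 of 7 adipocyte, −0.44 for 2 of 6 red cell and −0.09 for 6 skeletal muscle markers. Within these lists single genes ran from −0.74 to 0.57 (endothelial), −0.24 to 1.23 (fibroblast) and −0.28 to 0.89 (skeletal muscle). No marker could read 0, as the lowest intensities of the arrays were 7.1 to 7.7. Some were dim: Adipoq read 21.7 to 27.2, Lep 43.8 to 48.7 and Myh4 42.1 to 46.4, where array medians were 111.1 to 115.15. Others of the same lists were bright, such as Fabp4 at 4112 to 5529.

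**Figure D4:**
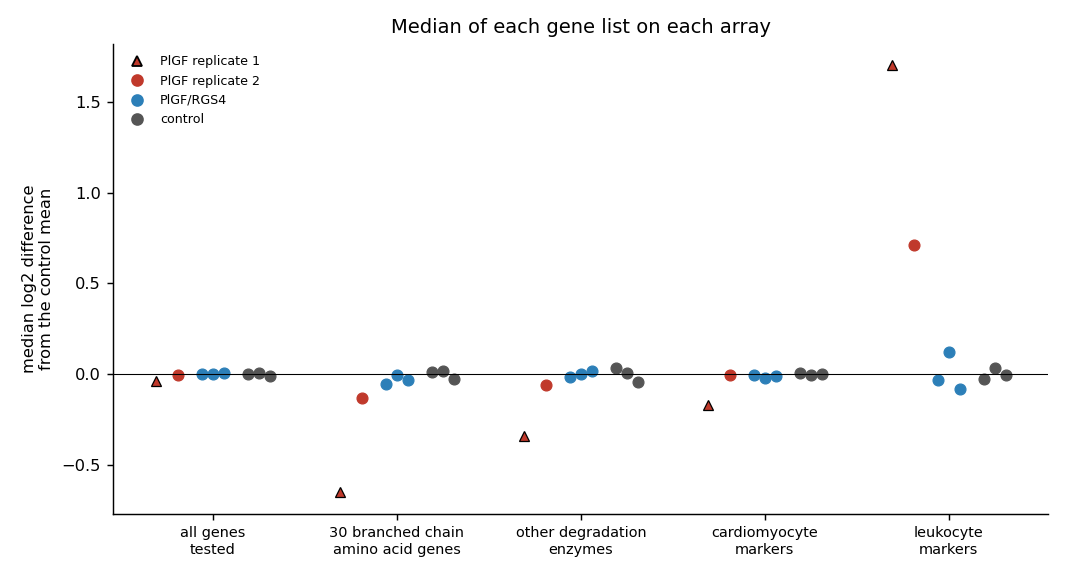
Median over each gene list (x axis) of the log2 difference from the control mean (y axis) on each array, with a triangle for PlGF replicate 1. The 30 genes lie at −0.65 and −0.13 in PlGF, the cardiomyocyte markers at −0.17 and −0.01, and the leukocyte markers at 1.70 and 0.71, while all genes together stay near 0 on each array.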

How the data were processed

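LV RNA was hybridised to Affymetrix Mouse Gene 1.0 ST arrays, 1 per heart. Intensity values, as deposited by the authors, come from MAS5 with global scaling by their methods and the submitters' notes, which do not say how MAS5 was applied to this array type; they are linear, 1 per probe set, and no build is named. Of 28440 probe sets, 21780 carry 1 symbol, 1618 several (left out) and 5042 none, which gave 19933 genes by the brightest probe set; 29 members had 1 probe set of their own. Of 2798 probe sets over 1000 on every array, 737 (26.3%) had an identical value on 2 or more arrays, so which summarisation made the values is uncertain. Arrays carry no read depth, so their number limits the precision.

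Intensity plus 1 was taken as log2 and fitted with the package limma 3.58.1 under R 4.3.3 (lmFit, then eBayes, 3 group means, 8 arrays; prior SD 0.0813), with Benjamini-Hochberg adjustment over 19933 genes. The tests were tried on simulated data. A two-sided exact permutation test cannot go below 0.1 here. An SE is limma's. All members are named; values per array are given for the members at an unadjusted p under 0.05, the regulators, the carriers and the dehydrogenase, and of each other list up to 4 genes per direction. Lists and members were chosen with earlier results of these data known. Alternatives were another normalization, centring, pseudocount (16), filter, probe set rule, prior, array weights, samples, test, replicate block, Xist as a covariate, and each array left out. The main fit did not pair the arrays by replicate number.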

Additional observations from a re-analysis of the deposited data

How the results depend on the processing

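When single arrays were left out, the count of members called in PlGF versus control ran from 0 to 26, that at an unadjusted p under 0.05 from 11 to 26, that without overlap from 21 to 29, and the median from −0.65 to −0.13. In PlGF versus PlGF/RGS4 these were 0 to 26, 6 to 26, 20 to 29 and −0.59 to −0.09, and in PlGF/RGS4 versus control 0 to 0, 0 to 6, 10 to 15 and −0.053 to −0.0134. The counts of 26 called came without PlGF replicate 2 in both comparisons, in fits that called 5921 and 5591 of all 19933 genes and had 40.6% and 39.7% at an unadjusted p under 0.05. Without PlGF replicate 1 the counts at an unadjusted p under 0.05 were 11 in PlGF versus control (14.1% of all genes) and 6 in PlGF versus PlGF/RGS4 (10.6% of all genes), and 0 members were called, with 366 and 273 of all genes; in the first of these leaving out control replicate 1 gave 12 (18.5% of all genes), and in the second leaving out PlGF/RGS4 replicate 1, 2 or 3 gave 8, 7 and 7 (13.7%, 15.1% and 13.6% of all genes). The cause was not tested.

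At an unadjusted p under 0.05, the t-test with a pooled spread gave 0 members in PlGF versus control, where it had 9.47% of all genes. It gave 6 in PlGF/RGS4 versus control (6.74% of all genes) and 0 in PlGF versus PlGF/RGS4 (8.16%). A fit to only the 2 groups compared has fewer arrays behind the spread. By the same measure it gave 6 members in PlGF/RGS4 versus control, 4 lower and 2 higher (8.9% of all genes), with no PlGF array in the spread. In PlGF versus PlGF/RGS4 it gave 6, all lower (13% of all genes). In PlGF/RGS4 versus control, quantile normalization gave 0 (4.98% of all genes) and array weights gave 3 (10.1%). The correlations of same-numbered arrays, in deviations from their group means, ran from −0.217 to 0.296. Between control and PlGF/RGS4-labelled arrays they were 0.0756, 0.296 and 0.101, where those of unlike numbers ran from −0.235 to 0.159. The deviations of 2 PlGF arrays mirror each other, so their correlations cannot show a pairing. Whether the numbers pair the arrays is thus not settled. With the replicate block the counts at an unadjusted p under 0.05 were 19 in PlGF versus control and 1 in PlGF/RGS4 versus control (18.6% and 4.2% of all genes). In PlGF versus PlGF/RGS4 the count was 18 (15.7% of all genes), and 0 members were called in any of the comparisons.

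Some changes of single members turned sign. In PlGF versus control, Slc3a2 was 0.0435 with the replicate block, and with an array left out ran from −0.29 to 0.23, Bcat1 from −0.0309 to 0.21, Dbt from −0.70 to 0.00817, Bckdk from −0.43 to 0.0105, Acadsb from −0.51 to 0.0181, Acat1 from −0.41 to 0.0337 and Mut from −0.90 to 0.00578. In PlGF/RGS4 versus control, Hibadh was 0.0459 with the mean of all its probe sets, and Bcat2 ran from −0.0800 to 0.0553, Bcat1 from −0.15 to 0.0315, Acad8 from −0.0679 to 0.00768, Aldh6a1 from −0.00556 to 0.0616, Slc3a2 from −0.17 to 0.11 and Pccb from −0.00938 to 0.056. In PlGF versus PlGF/RGS4, Slc3a2 was −0.0127 with median centring and −0.00723 with Xist as a covariate, and ran from −0.24 to 0.28, Dld from −0.54 to 0.00135, Oxct1 from −0.53 to 0.00233, Slc7a5 from −0.0404 to 1.21 and Abat from −0.13 to 0.0377. The PlGF group holds 2 hearts that differ from each other, with PlGF replicate 1 below PlGF replicate 2 for 26 of the 30 members, and neither array can be checked against a further PlGF heart here.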
